A study of Homo sapiens with 12 samples.

Results

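Deoxyribonucleotide supply was followed through 8 genes in HS578T cells (so labelled), a line from a triple-negative breast tumour: RRM1, RRM2, RRM2B, TYMS, TK1, DCK, DUT and SAMHD1. They were taken as a named list of symbols and matched to the gene identifiers of the count table. The 8 genes are 8 of 60660 identifiers, and all 8 passed the filter on low counts.

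RNA was measured in 12 libraries, 3 in each of 4 groups. Deleted doxorubicin cells carried, per the labels, a knockout of one chromosome copy of 17p, the short arm of chromosome 17, and received 1 µM doxorubicin for 48 h. Deleted DMSO cells had the same genotype label and received DMSO, the solvent, for 48 h. Intact doxorubicin cells are labelled WT, with Cas9 in their titles, and received 170 nM doxorubicin for 48 h, and intact DMSO cells are their DMSO counterpart. Dose differs with genotype among the treated cells, so dose and genotype cannot be told apart in any comparison of treated libraries between genotypes or in the difference of the doxorubicin effects. The labels do not say whether the deleted cells are 1 clone or a pool, nor whether replicate libraries are separate cultures. The p-values therefore measure only how far these libraries spread, and that spread may be technical. Doxorubicin is an anthracycline that traps DNA topoisomerase II on cut DNA.

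Ribonucleotide reductase makes deoxyribonucleotides by reducing ribonucleotides. Its catalytic large subunit, RRM1, works with a small subunit, either RRM2, which is made in cycling cells in S phase, or RRM2B (p53R2), a transcriptional target of p53 that supplies deoxyribonucleotides for repair and for mitochondrial DNA. Thymidylate is added to the pool by thymidylate synthase (TYMS) from dUMP, which the dUTPase DUT makes from dUTP, and by thymidine kinase 1 (TK1) from thymidine. Deoxycytidine kinase (DCK) salvages deoxycytidine and some other deoxynucleosides, and SAMHD1 cleaves deoxyribonucleotides back to deoxynucleosides.

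The stretch before the start of a gene is where factors shared by such genes can bind, and the promoters of 4 members with a single RefSeq start are shown so that the letters can be read beside the expression values. The 250 bases before the start were taken from RefSeq on GRCh38.p14, which held promoters for 7 of the 8 members. Capitals mark, on either strand, 1 of 4 E2F words (TTTCCCGC, TTTCGCGC, TTTGCCGC or TTTGGCGC), a CCAAT box (CCAAT) or a GC box (GGGCGG), and the sequences are written 5′ to 3′ on the gene's strand. No marked matches overlap.
TYMS, chr18:657403-657652, plus strand: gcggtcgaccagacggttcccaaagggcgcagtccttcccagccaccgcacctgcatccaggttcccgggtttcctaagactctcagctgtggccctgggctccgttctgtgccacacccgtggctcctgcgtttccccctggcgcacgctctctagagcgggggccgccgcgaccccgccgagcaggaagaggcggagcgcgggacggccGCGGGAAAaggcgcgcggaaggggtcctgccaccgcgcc
RRM1, chr11:4094435-4094684, plus strand: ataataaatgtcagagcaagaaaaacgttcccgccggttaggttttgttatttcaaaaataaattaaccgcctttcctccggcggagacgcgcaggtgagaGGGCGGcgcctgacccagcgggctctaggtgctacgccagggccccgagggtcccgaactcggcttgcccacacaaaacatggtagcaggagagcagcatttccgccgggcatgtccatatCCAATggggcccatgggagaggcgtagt
SAMHD1, chr20:36951709-36951958, minus strand: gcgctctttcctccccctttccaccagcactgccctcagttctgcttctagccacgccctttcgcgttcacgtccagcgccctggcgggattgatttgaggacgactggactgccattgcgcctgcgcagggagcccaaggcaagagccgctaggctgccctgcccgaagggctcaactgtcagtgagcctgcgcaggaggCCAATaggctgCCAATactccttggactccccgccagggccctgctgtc
DCK, chr4:70993399-70993648, plus strand: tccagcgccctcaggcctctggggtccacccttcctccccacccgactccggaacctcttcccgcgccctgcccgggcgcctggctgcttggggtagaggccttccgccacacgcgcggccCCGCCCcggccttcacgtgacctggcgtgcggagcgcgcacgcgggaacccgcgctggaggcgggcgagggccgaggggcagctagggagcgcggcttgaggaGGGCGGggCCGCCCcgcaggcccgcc
The TYMS window held an E2F word on the minus strand that began 39 bases before the start, and 2.79% of all 35116 RefSeq windows of this length held one. RRM1 held a CCAAT box 28 bases and a GC box 149 bases before the start. SAMHD1 held CCAAT boxes 49 and 38 bases before the start, and DCK held GC boxes at 129, 26 and 18 bases. A CCAAT box was present in 32.0% and a GC box in 42.6% of all windows. None of these windows held the core of the interferon-stimulated response element, which 3.02% of all windows held. RRM2, TK1 and DUT have several RefSeq starts. The window of the downstream RRM2 start held CCAAT boxes at 123, 93 and 66 bases, and that of the upstream start held 1 at 249 bases. For TK1 the window of 1 start held CCAAT boxes at 77 and 46 bases on the minus strand, and that of the other start held none. For DUT the window of the most downstream start held E2F words at 42 and 27 bases, and those of the other starts held none. A match describes these letters and is not evidence of binding.

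Library totals ran from 66150539 to 99142099 counts, and the floor of 3 counts for a gene listed at 0 equals 0.0303 to 0.0454 counts per 1e6 (CPM) of these totals. Counting limits cover counting error only. Mesenchymal VIM was at 990 to 2526 CPM and the epithelial cadherin CDH1 at 0 to 0.441 CPM, while the epithelial keratins KRT8 and KRT18 were at 251 to 371 and 131 to 248 CPM. The hormone receptors ESR1 and PGR were at most 0.167 and 0.0768 CPM and ERBB2 was at 72.6 to 114 CPM, and summed blood markers reached at most 1.18 CPM. The karyotype recorded for the line was not matched by 12 of 12 libraries, judged by transcripts of particular chromosomes, so the cells are called by their labels. The median log2 fold change between deleted and intact DMSO libraries was -0.12 over 399 genes of 17p, -0.24 over 974 genes of the long arm (17q) and 0.05 over other genes. Of the members TK1 alone lies on chromosome 17, on 17q. Mitochondrial genes took 6.90% of the counts in deleted DMSO replicate 2 and 5.54% in intact doxorubicin replicate 1, against 2.61% to 3.57% in the other 10 libraries. Across genes, the Spearman rho between a library's deviation from its group mean and the GC content of the transcripts was -0.706 and -0.638 in these libraries. It was 0.688 in intact doxorubicin replicate 2, 0.655 in deleted DMSO replicate 3 and 0.579 in deleted DMSO replicate 1.

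In deleted cells 6 of the 8 genes rose with doxorubicin and none fell: RRM2B, TYMS, RRM1, TK1, SAMHD1 and RRM2. The edgeR quasi-likelihood test with Benjamini-Hochberg adjustment over all 21803 genes tested called 17.5% of them higher in deleted doxorubicin than in deleted DMSO libraries and 13.1% lower, 30.7% in all. The median log2 fold change was 0.57 over the 8 members and -0.02 over all genes tested. In all 6, the 3 deleted doxorubicin libraries lay above the 3 deleted DMSO libraries, an order found in 24.6% of all genes, and the opposite order, found in 20.7%, was shown by no member. DCK and DUT did not pass. In bulk RNA, fewer cells of a type and less RNA per cell cannot be told apart, and cell cycle stage was not measured.

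**Figure D1:**
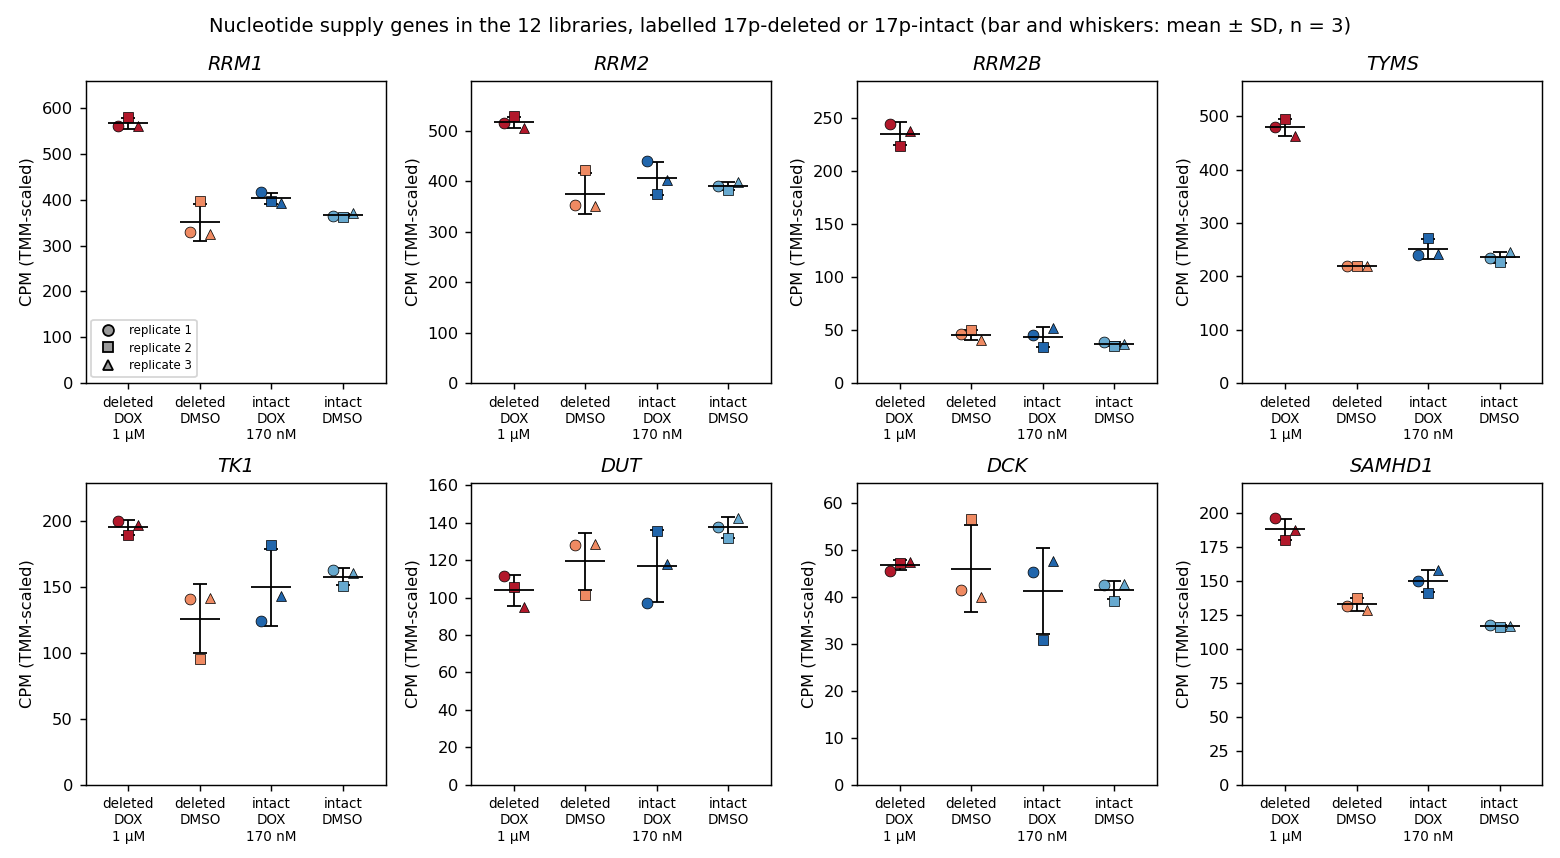
Level of each gene in every library, in CPM from 0, with 1 point a library and mean ± SD of each group of 3. The deleted doxorubicin libraries stand above the other 9 for RRM1, RRM2, RRM2B, TYMS, TK1 and SAMHD1, and doxorubicin and DMSO libraries of each genotype overlap for DCK and DUT.

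Per length of merged exons, TYMS was the most abundant member in every group, at 194 CPM per kb in deleted doxorubicin, 88.9 in deleted DMSO, 101.6 in intact doxorubicin and 95.4 in intact DMSO libraries. RRM2B held a different place in the order of levels. It ranked 5 of the 8 in deleted doxorubicin libraries at 42.4 CPM per kb, above DUT at 28.3, SAMHD1 at 16.7 and DCK at 14.5. In the other groups it was the lowest, at 8.21 CPM per kb in deleted DMSO, 7.88 in intact doxorubicin and 6.65 in intact DMSO libraries. In deleted DMSO libraries the neighbours TYMS, RRM1, RRM2 and TK1, at 88.9, 84.0, 70.4 and 67.8 CPM per kb, overlapped pair by pair, and in intact doxorubicin libraries these 4 and the pair SAMHD1 and DCK overlapped. In intact DMSO libraries RRM1 and TK1 overlapped. No neighbours overlapped in deleted doxorubicin libraries. The order depends on the merged exon length, which is 11261 bp for SAMHD1 and 3674 bp for DUT. By mean CPM without length, SAMHD1 (188) was above DUT (104) in deleted doxorubicin libraries. By the same measure RRM2B (43.7) was above DCK (41.3) in intact doxorubicin libraries.

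The small subunit RRM2B (ENSG00000048392.12, hg38 chromosome 8, 102204502 to 102239118, minus strand) gave the largest response among the members. It had 244, 223 and 238 CPM in deleted doxorubicin libraries, 46.4, 49.8 and 40.4 in deleted DMSO, 45.4, 33.5 and 52.2 in intact doxorubicin, and 38.5, 35.1 and 37.1 in intact DMSO libraries. Every deleted doxorubicin library was above all 9 others, and the other 3 groups lay close together. The rise in deleted cells was 5.16-fold, a log2 fold change of 2.37 with a standard error (SE) of 0.14 and an adjusted p of 3.26e-08 in edgeR. In intact cells the log2 fold change was 0.24 with a 95% interval of -0.05 to 0.53 and an adjusted p of 0.515. The difference between these doxorubicin effects was 2.12 on the log2 scale (SE 0.19, adjusted p = 4.89e-06). Between treated libraries, deleted cells were 5.38-fold above intact cells (log2 2.43, adjusted p = 1.40e-08). Between DMSO libraries the 3 deleted ones lay above the 3 intact ones, with a log2 fold change of 0.30, a 95% interval of 0.01 to 0.59 and an adjusted p of 0.101.

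The large subunit RRM1 (ENSG00000167325.15, chromosome 11, 4094707 to 4138876, plus strand) had 560.3, 580.1 and 560.2 CPM in deleted doxorubicin libraries, 330.1, 397 and 326 in deleted DMSO, 418, 398 and 394 in intact doxorubicin, and 365, 362 and 370.3 in intact DMSO libraries. Deleted doxorubicin libraries were again above all others. Among deleted DMSO libraries replicate 2, which has the high mitochondrial share, was the highest, and intact doxorubicin libraries lay just above intact DMSO ones without overlap. The rise in deleted cells was 1.62-fold (log2 0.69, SE 0.09, adjusted p = 3.53e-05 in edgeR). In intact cells the log2 fold change was 0.14, with a 95% interval of -0.05 to 0.32 and an adjusted p of 0.559. The effects differed by 0.55 on the log2 scale (SE 0.12, adjusted p = 0.00641), and treated deleted cells were 1.41-fold above treated intact cells (adjusted p = 3.39e-04). Between the DMSO groups, which overlapped, it was -0.06 with an adjusted p of 0.635.

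RRM2 (ENSG00000171848.16, chromosome 2, 10120698 to 10131419, plus strand), the S phase small subunit, had 515, 529 and 506 CPM in deleted doxorubicin libraries, 352, 422 and 351 in deleted DMSO, 440.4, 375 and 402 in intact doxorubicin, and 389.7, 382 and 399 in intact DMSO libraries. The deleted doxorubicin libraries were the highest, and the other groups overlapped one another. In deleted cells the rise was 1.38-fold (log2 0.46, SE 0.09, adjusted p = 0.00165 in edgeR), against a log2 fold change of 0.06 with a 95% interval of -0.14 to 0.25 in intact cells (adjusted p = 0.857). The effects differed by 0.40 on the log2 scale (SE 0.13, adjusted p = 0.0475), which was past the threshold in 10 of 21 other settings. Treated deleted cells were 1.27-fold above treated intact cells (adjusted p = 0.00651), and the DMSO groups differed by -0.06 with an adjusted p of 0.673. In GENCODE 29, AC007240.1, a gene on the same strand that has no count here, overlaps 20.2% of the RRM2 exon length. There are also 3 pseudogenes named for RRM2, and reads shared with such copies could be split in counting.

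The balance of the small subunits stood apart in deleted doxorubicin libraries. Per length, RRM2B made up 30.4 ± 1.35% of the small-subunit RNA (RRM2B plus RRM2) in deleted doxorubicin libraries, 10.5 ± 0.689% in deleted DMSO, 9.32 ± 1.61% in intact doxorubicin and 8.32 ± 0.301% in intact DMSO libraries (SD, n = 3 each). The RRM2B to RRM2 ratio per length was 0.455, 0.405 and 0.451 in deleted doxorubicin libraries, 0.127, 0.113 and 0.110 in deleted DMSO, 0.0989, 0.0858 and 0.124 in intact doxorubicin, and 0.0949, 0.0882 and 0.0894 in intact DMSO libraries. Deleted doxorubicin libraries did not overlap any other group, and the deleted DMSO libraries lay above the intact DMSO ones. The ratio was 3.74-fold higher in deleted doxorubicin than in deleted DMSO libraries and 4.29-fold higher than in intact doxorubicin libraries, and it was 1.28-fold higher in deleted DMSO than in intact DMSO libraries. Each of these gave an exact two-sided permutation p of 0.1, the smallest that 3 libraries against 3 can give, and an adjusted p of 0.160 over the 16 ratio tests, so none could pass 0.05. Within intact cells the ratio overlapped between treatments (exact permutation p = 0.4, adjusted p = 0.492).

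RRM2 rose less than RRM1 in deleted cells by estimate (0.46 against 0.69 on the log2 scale), and their ratio was lower there. The RRM2 to RRM1 ratio per length was 0.721, 0.715 and 0.708 in deleted doxorubicin libraries, 0.837, 0.834 and 0.845 in deleted DMSO, 0.827, 0.740 and 0.802 in intact doxorubicin, and 0.838, 0.827 and 0.845 in intact DMSO libraries. The DMSO groups of both genotypes covered nearly the same narrow range, while intact doxorubicin libraries were spread more widely, with replicate 2 the lowest. The deleted doxorubicin ratio was 0.853-fold that of deleted DMSO libraries without overlap (exact permutation p = 0.1, adjusted p = 0.160), and it lay below all intact doxorubicin libraries with the same p-values. In intact cells the exact permutation p was 0.2 (adjusted p = 0.291), and between DMSO groups it was 1 (adjusted p = 1).

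**Figure D2:**
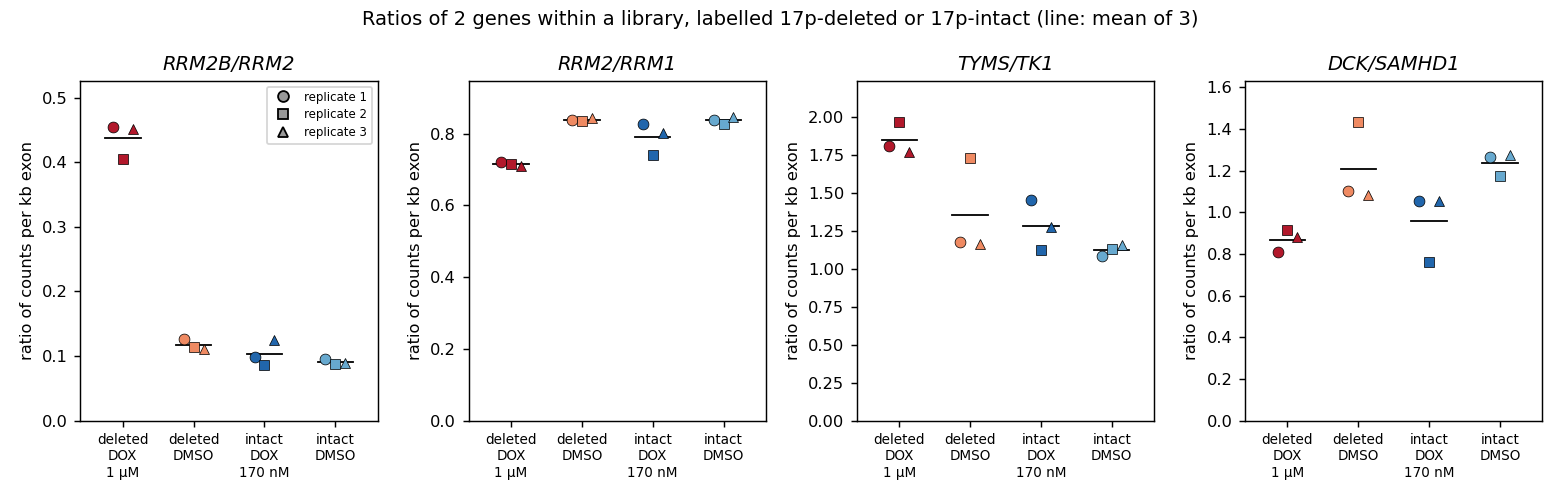
Ratios between pairs of member genes in each library, per kb of exon, on axes from 0, with 1 point a library and a line at the mean of each group of 3. RRM2B to RRM2 is 0.405 to 0.455 in deleted doxorubicin libraries and at most 0.127 elsewhere, and RRM2 to RRM1 is lowest in the same libraries.

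TYMS (ENSG00000176890.16, chromosome 18, 657604 to 673578, plus strand), which methylates dUMP to thymidylate, gave the second largest response. It had 480.3, 495 and 463 CPM in deleted doxorubicin libraries, 219.5, 219.7 and 219.9 in deleted DMSO, 239.8, 272 and 242 in intact doxorubicin, and 235, 226 and 246 in intact DMSO libraries. The lowest deleted doxorubicin library, at 463 CPM, stood well above the highest of the others, at 272 CPM, and the deleted DMSO libraries lay just under the intact DMSO ones. The rise in deleted cells was 2.18-fold (log2 1.13, SE 0.08, adjusted p = 1.49e-07 in edgeR), and in intact cells the log2 fold change was 0.09 with a 95% interval of -0.08 to 0.26 (adjusted p = 0.690). The effects differed by 1.03 on the log2 scale (SE 0.11, adjusted p = 2.13e-05). Treated deleted cells were 1.91-fold above treated intact cells (adjusted p = 4.66e-07), and the DMSO groups differed by -0.10 with an adjusted p of 0.349. Of the TYMS exon length, 39.1% is shared with ENOSF1 and 7.41% with TYMSOS, both on the opposite strand, and the strand setting of the counting is not given in the sources used here. TYMS also has 2 named pseudogenes. ENOSF1 had 16.0 to 18.3 CPM in deleted doxorubicin and 18.2 to 21.4 in deleted DMSO libraries, against 30.6 to 34.3 in intact doxorubicin and 30.9 to 37.4 in intact DMSO libraries. The antisense transcript TYMSOS rose in deleted cells to 5.78 CPM, against 2.03 CPM in deleted DMSO libraries (log2 1.51, adjusted p = 5.69e-04 in edgeR).

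TK1 (ENSG00000167900.12, chromosome 17, 78174075 to 78187233, minus strand), the S phase kinase of the thymidine salvage route, rose less. It had 200.3, 189 and 197 CPM in deleted doxorubicin libraries, 141, 95.6 and 142 in deleted DMSO, 124, 182 and 143 in intact doxorubicin, and 163, 151 and 160.5 in intact DMSO libraries. The lowest values were in deleted DMSO replicate 2 and intact doxorubicin replicate 1, the libraries with high mitochondrial shares, and the high value of intact doxorubicin came from replicate 2. TK1 has the highest GC content of the members, 62.8% in its longest transcript. The rise in deleted cells was 1.55-fold (log2 0.63, SE 0.15, adjusted p = 0.00598 in edgeR). The log2 fold change was 0.43 with the GC trend of each library removed and 0.46 without both high-mitochondrial libraries, past the threshold in each. In intact cells the log2 fold change was -0.08 with a 95% interval of -0.40 to 0.25 (adjusted p = 0.885). The difference of effects was 0.71 (SE 0.21, adjusted p = 0.0359), past the threshold in 12 of 21 other settings. Treated deleted libraries lay above treated intact ones without overlap, but the log2 fold change of 0.38 had an adjusted p of 0.0505, and it passed in 7 of 22 other settings. In DMSO the deleted libraries lay below the intact ones (log2 -0.33, 95% interval -0.65 to 0.00, adjusted p = 0.115).

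The TYMS to TK1 ratio per length was 1.81, 1.97 and 1.77 in deleted doxorubicin libraries, 1.17, 1.73 and 1.17 in deleted DMSO, 1.45, 1.12 and 1.27 in intact doxorubicin, and 1.08, 1.13 and 1.16 in intact DMSO libraries. Deleted doxorubicin libraries were the highest, but deleted DMSO replicate 2 came close to them. The exact permutation p was 0.1 for deleted doxorubicin against deleted DMSO libraries and 0.3 for intact doxorubicin against intact DMSO libraries, with adjusted p of 0.160 and 0.400.

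DUT (ENSG00000128951.14, chromosome 15, 48331011 to 48343373, plus strand), which removes dUTP, was the only member with a negative estimate in deleted cells in the edgeR fit. It had 111, 106 and 94.9 CPM in deleted doxorubicin libraries, 128, 101.6 and 128 in deleted DMSO, 97.3, 136 and 118 in intact doxorubicin, and 138, 132 and 143 in intact DMSO libraries. Both doxorubicin groups overlapped their DMSO counterparts, and the deleted DMSO libraries were below the intact DMSO ones. The log2 fold change was -0.20 with a 95% interval of -0.47 to 0.07 in deleted cells (adjusted p = 0.260 in edgeR) and -0.23 with -0.50 to 0.04 in intact cells (adjusted p = 0.501). Without both high-mitochondrial libraries DUT fell in deleted cells, by 0.31 on the log2 scale (adjusted p = 0.0131), and was lower in treated deleted than in treated intact cells (log2 -0.33, adjusted p = 0.00549). The doxorubicin effects differed by 0.03 (adjusted p = 0.927). DUT shares 14.5% of its exon length with DUT-AS1 on the opposite strand and has 8 named pseudogenes.

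DCK (ENSG00000156136.10, chromosome 4, 70992538 to 71030914, plus strand), the kinase that activates cytarabine and gemcitabine, had 45.5, 47.3 and 47.4 CPM in deleted doxorubicin libraries, 41.6, 56.6 and 40.0 in deleted DMSO, 45.4, 30.9 and 47.7 in intact doxorubicin, and 42.6, 39.2 and 42.7 in intact DMSO libraries. Deleted DMSO replicate 2 was the highest of all and intact doxorubicin replicate 2 the lowest. Doxorubicin and DMSO libraries overlapped in each genotype, and the deleted and intact groups overlapped under each treatment. The log2 fold change was 0.02 with a 95% interval of -0.32 to 0.36 in deleted cells (adjusted p = 0.940 in edgeR) and -0.01 with -0.35 to 0.33 in intact cells (adjusted p = 0.994). DCK shares 6.17% of its exon length with MOB1B on the same strand.

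SAMHD1 (ENSG00000101347.10, chromosome 20, 36889773 to 36951901, minus strand), the deoxyribonucleotide triphosphohydrolase, rose with doxorubicin in deleted cells and had the largest estimate of the 8 in intact cells, where it missed the threshold. It had 196, 180.2 and 188 CPM in deleted doxorubicin libraries, 132, 138 and 129 in deleted DMSO, 150.1, 141 and 158 in intact doxorubicin, and 118, 116 and 117 in intact DMSO libraries. The groups stood in this order without overlap: deleted doxorubicin, intact doxorubicin, deleted DMSO and intact DMSO. In deleted cells the rise was 1.42-fold (log2 0.50, SE 0.08, adjusted p = 2.00e-04 in edgeR). In intact cells it was 1.28-fold above DMSO (log2 0.36, 95% interval 0.19 to 0.52, adjusted p = 0.0972), and DESeq2 called it with an adjusted p of 0.00115. The doxorubicin effects of the genotypes differed by 0.14 on the log2 scale, with a 95% interval of -0.09 to 0.38 (adjusted p = 0.407). Treated deleted cells were 1.26-fold above treated intact cells (adjusted p = 0.00285), a call lost with no filter on low counts (log2 0.30, adjusted p = 0.0535). In DMSO the log2 fold change was 0.18 with an adjusted p of 0.0801. SAMHD1 shares 10.3% of its exon length with TLDC2 on the opposite strand.

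The DCK to SAMHD1 ratio per length, of an enzyme that builds the pool to one that cleaves it, was 0.810, 0.917 and 0.881 in deleted doxorubicin libraries, 1.10, 1.43 and 1.08 in deleted DMSO, 1.06, 0.762 and 1.05 in intact doxorubicin, and 1.26, 1.17 and 1.28 in intact DMSO libraries. In both genotypes every doxorubicin library was below every DMSO library (exact permutation p = 0.1, adjusted p = 0.160 in each). Between genotypes the groups overlapped under either treatment.

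Doxorubicin at 170 nM in intact cells changed none of the 8 past the threshold in edgeR, where 0.0596% of all genes passed, 0.0275% higher and 0.0321% lower. At an unadjusted p under 0.05 in edgeR it was 1 of 8, SAMHD1, where 2504 of all 21803 genes tested were under it. After adjustment DESeq2 called 1 member and limma-voom 0. SAMHD1 and RRM1 were above in every treated library, an order that 10.7% of all genes showed, and no member was below in every treated library, as 8.67% of all genes were. The median log2 fold change was 0.07 over the members and 0.01 over all genes.

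Between DMSO libraries, deleted against intact, no member passed the adjusted threshold, where 34.9% of all genes did, 18.8% higher and 16.2% lower. At an unadjusted p under 0.05 in edgeR there were 2, SAMHD1 and RRM2B, where 9569 of all 21803 genes tested were under it. After adjustment DESeq2 and limma-voom called 0 members each. The 3 deleted libraries lay above the 3 intact ones for RRM2B and SAMHD1 and below them for TYMS, TK1 and DUT, orders that 25.7% and 23.9% of all genes showed. All 8 estimates were between -0.33 and 0.30 on the log2 scale.

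Between doxorubicin libraries 5 of the 8 were higher in deleted than in intact cells and none lower, where 25.9% of all genes were called higher, 21.9% lower and 47.8% in either direction. They were RRM2B, TYMS, RRM1, RRM2 and SAMHD1, and with TK1 they were above in every deleted library, an order of 31.4% of all genes, while 25.6% showed the opposite order. The doxorubicin effect was larger in deleted cells for 5 of the 8, where 10.3% of all genes passed in this direction, 6.74% in the other and 17.0% in all. These were RRM2B, TYMS, TK1, RRM1 and RRM2. The 5 comparisons share libraries, so their values are given side by side and do not support one another.

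**Figure D3:**
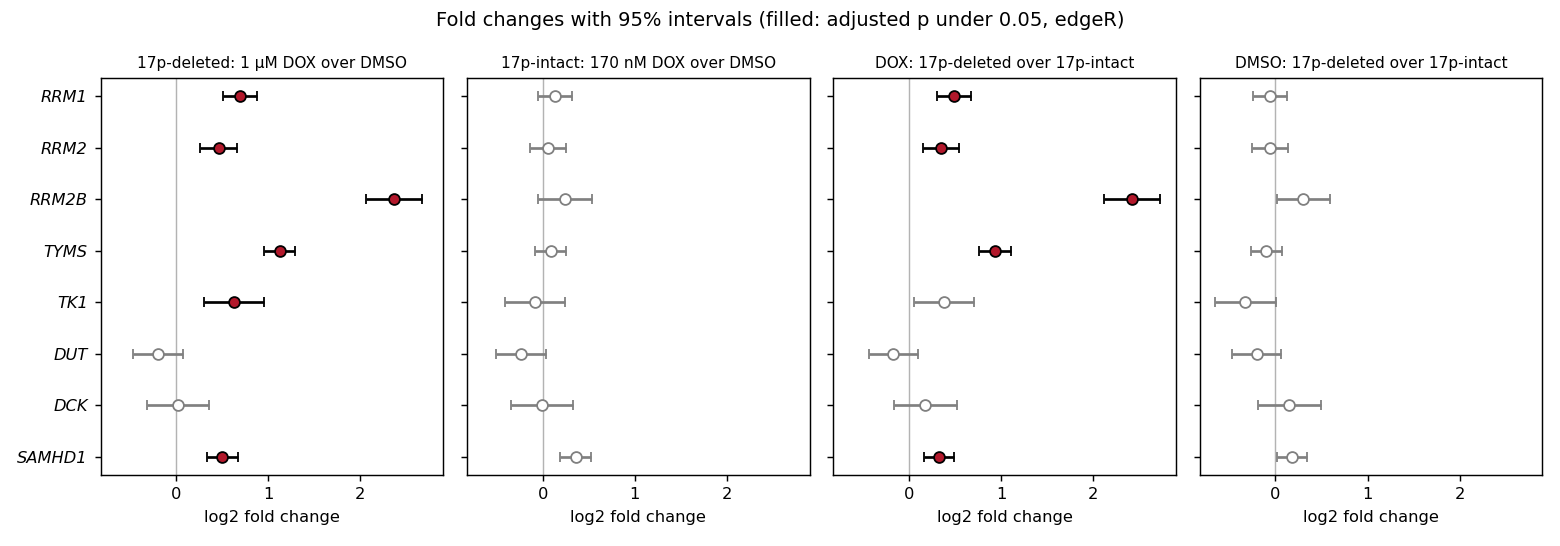
Log2 fold change of each gene with its 95% interval in 4 comparisons, from the edgeR fit, with filled points past an adjusted p of 0.05. In deleted cells the points run from 2.37 for RRM2B to -0.20 for DUT, and in intact cells all lie between -0.23 and 0.36.

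The genes whose pattern over the 12 libraries was nearest to each member were found among 9920 genes by the root mean square (RMS) difference of centred log2(CPM + 1) values. Nearest to RRM2B were SESN1 (RMS 0.159), DGKA (0.171) and STX6 (0.174). SESN1, a stress gene, is a known p53 target and is on the list of p53 targets described with the other gene lists. Nearest to TYMS were EI24 (0.0842), PRKCD (0.0864) and ZBTB5 (0.0911). Nearest to RRM1 were C17orf80 (0.0702), CSTF3 (0.0717) and PLD1 (0.0805), with RRM2 at rank 6 (0.0996). The other members ranked from 43 (SAMHD1) to 9541 (RRM2B) in nearness to RRM1. Nearest to RRM2 was PRIM1 (0.0608), a DNA primase subunit, before PPP2R2D (0.0610) and SAV1 (0.0710), with RRM1 at rank 41. TK1 was nearest to CPSF4 (0.0634), DCK to ADAM10 (0.0622), DUT to PAQR4 (0.0681) and SAMHD1 to RIPK1 (0.0724). The measure also counts whatever the libraries share in depth and base composition, whose part in it was not tested.

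Other genes of nucleotide metabolism moved in both directions in deleted cells. Of a list of 70, 68 were tested, and 12 rose, 15 fell and 41 did not pass, where 17.5% of all genes rose and 13.1% fell. The median log2 fold change was -0.04, against -0.02 over all genes. SLC28A1 and SLC28A2, concentrating nucleoside transporters, were not tested, with at most 15 and 7 counts in a library. In intact cells 0 of the 68 passed with edgeR, DESeq2 or limma-voom. In edgeR 5 had an unadjusted p under 0.05, where 2504 of all 21803 genes tested did.

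Of 5 reductants and regulators of the reductase 0 rose, 3 fell and 2 did not pass, where 13.1% of all genes fell. Glutaredoxin (GLRX), which can pass electrons to the reductase, fell to 13.9 CPM in deleted doxorubicin libraries, against 31.7 CPM in deleted DMSO libraries (log2 -1.19, adjusted p = 2.18e-06 in edgeR). Thioredoxin reductase 1 (TXNRD1), which keeps thioredoxin reduced, was at 395 CPM in deleted doxorubicin libraries and 748 CPM in deleted DMSO libraries (log2 -0.92, adjusted p = 2.06e-06). The cyclin CCNF, which targets RRM2 for degradation, was chosen after its values were seen, and it fell by 0.58 on the log2 scale (adjusted p = 8.24e-04). In intact cells TXNRD1 averaged 642 CPM with doxorubicin and 644 CPM in DMSO. GLRX and TXNRD1 also had negative differences of the doxorubicin effects, of -1.14 and -0.92 (adjusted p = 1.63e-04 and 1.17e-04).

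In the thymidylate and folate cycle 2 of 9 rose and 2 fell in deleted cells, where 17.5% of all genes rose and 13.1% fell. TYMSOS was among those that rose. The mitochondrial folate enzymes MTHFD1L and SHMT2, named after their values were seen, fell by 0.83 and 0.37 on the log2 scale (adjusted p = 2.50e-06 and 0.0400 in edgeR). MTHFD2, by its mean over the 12 libraries the most abundant gene of the list that did not pass, averaged 262 CPM with doxorubicin and 221 CPM in DMSO (log2 0.24, adjusted p = 0.0929).

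De novo purine synthesis had 1 riser and 5 fallers of 13 in deleted cells, where 17.5% of all genes rose and 13.1% fell. These risers and fallers were all named after their values were seen. PAICS fell by 0.55, PPAT, the first committed step, by 0.43, GART and ADSS2 by 0.38 each and ATIC by 0.26 on the log2 scale, and ADSS1 rose by 0.62 at 3.36 CPM in deleted doxorubicin libraries, against 2.18 CPM in deleted DMSO libraries. In the pyrimidine route 2 rose and 2 fell of 5, CTPS1 (0.43) and UMPS (0.33) upward and DHODH (-0.38) and CTPS2 (-0.37) downward, also named after their values were seen. Among 8 salvage genes 0 passed in edgeR, DESeq2 or limma-voom. In edgeR 0 had an unadjusted p under 0.05, where 8765 of all 21803 genes tested did.

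Of 8 nucleotide kinases 3 rose and 1 fell in deleted cells, where 17.5% of all genes rose and 13.1% fell. Among those of at least 5 CPM the largest rise was that of the adenylate kinase AK1, with 50.1 CPM in deleted doxorubicin libraries and 17.1 CPM in deleted DMSO libraries (log2 1.55, adjusted p = 1.80e-05 in edgeR). Of 4 nucleoside transporters tested 3 rose, among them SLC29A3, a transporter of intracellular membranes, at 7.01 CPM in deleted doxorubicin libraries and 3.69 CPM in deleted DMSO libraries (log2 0.92, adjusted p = 1.84e-04). Breakdown genes had 1 riser and 2 fallers of 16. DPYD, which starts the breakdown of uracil and thymine, fell to 21.5 CPM in deleted doxorubicin libraries, against 52.6 CPM in deleted DMSO libraries (log2 -1.29, adjusted p = 4.46e-07).

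**Figure D4:**
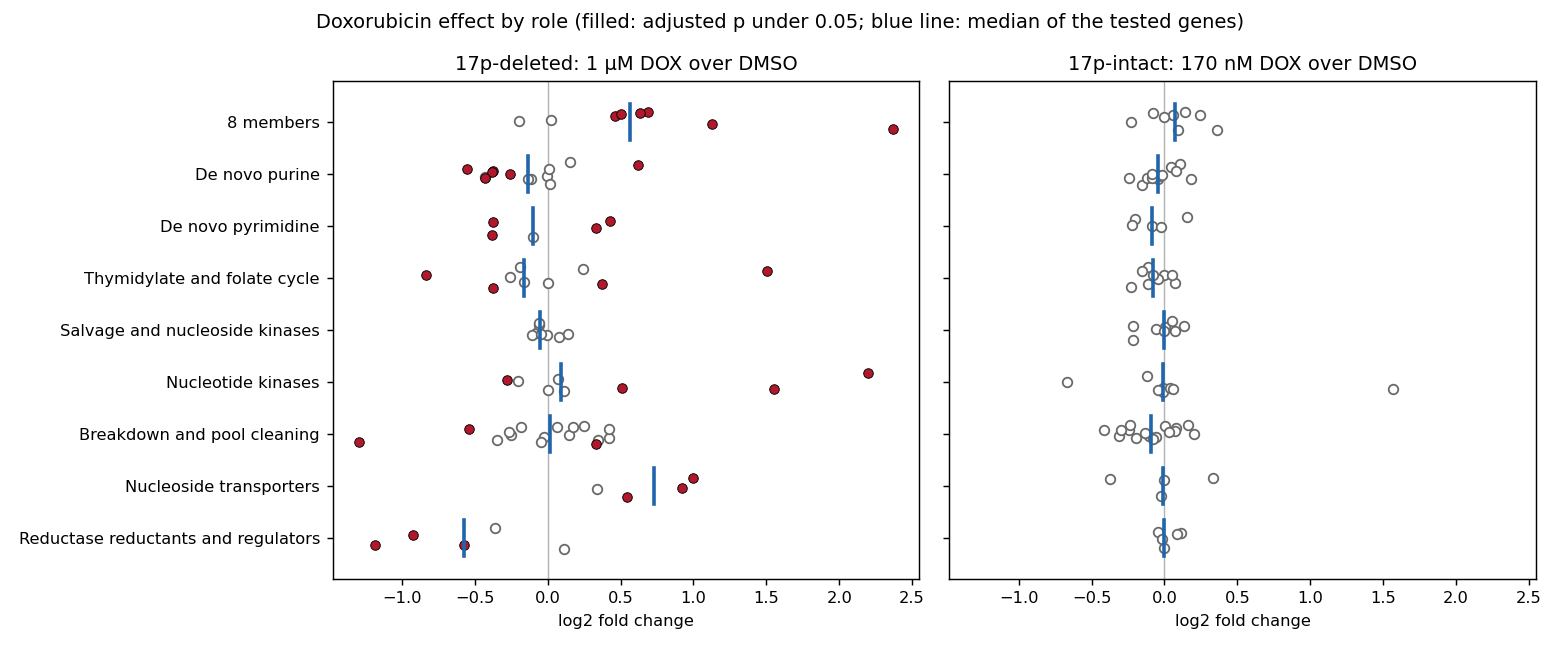
Log2 fold change of each tested gene of the nucleotide metabolism list by role, in deleted cells (doxorubicin over DMSO) and in intact cells, with the members in the top row, 1 point a gene, filled points past an adjusted p of 0.05 and a blue line at each median. In deleted cells points of most roles lie on both sides of 0, and in intact cells none is filled.

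Between DMSO libraries 11 of the 68 were higher and 19 lower in deleted than in intact cells, where 18.8% of all genes were higher and 16.2% lower. NT5E, an ecto-nucleotidase, was at 117 CPM in deleted DMSO libraries and 33.2 CPM in intact DMSO libraries (log2 1.82, adjusted p = 1.07e-07 in edgeR), and GLRX and AK1 were higher by 1.04 and 0.96. DHODH, the mitochondrial step of pyrimidine synthesis, was at 5.67 CPM in deleted DMSO libraries and 18.5 CPM in intact DMSO libraries (log2 -1.70, adjusted p = 6.98e-08), and NT5C, a deoxyribonucleotidase, and TK2, the mitochondrial thymidine kinase, were lower by log2 fold changes of -1.13 and -1.09. TXNRD1 did not pass (log2 0.22, adjusted p = 0.0615), though it did with limma-voom (adjusted p = 0.0493) and with the GC trend removed (adjusted p = 0.0486). Between doxorubicin libraries 20 were higher and 24 lower in deleted cells, against 25.9% and 21.9% of all genes, with AK1 (2.52), NT5E (1.72) and TYMSOS (1.63) the largest and DHODH (-1.87), DPYD (-1.58) and NT5C (-1.27) the smallest log2 fold changes, and MTHFD2 not past (-0.18, or -0.31 with an adjusted p of 0.0159 without intact doxorubicin replicate 2). The difference of the doxorubicin effects was higher for 7 and lower for 8 of 68, against 10.3% and 6.74% of all genes, with TYMSOS (1.74), AK1 (1.56) and SLC29A1 (0.56), an equilibrative nucleoside transporter, at the upper end.

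Lists of p53 targets, S phase genes and interferon-stimulated genes are given as measured values, and their part in the members' changes was not tested. In deleted cells 17.5% of all genes tested rose with doxorubicin and 13.1% fell. There 12 of 12 p53 targets rose, with a median log2 fold change of 2.64, against 2.37 for RRM2B, itself a known target. Of 13 S phase genes 6 rose, 1 fell and 6 did not pass, with a median of 0.29, against 0.46 for RRM2 and 0.69 for RRM1. PCNA, the replication clamp, was named after its values were seen, and it rose by 0.93, above the median of its list. Of 12 interferon-stimulated genes 12 rose, with a median of 1.81. In intact cells 0 of the p53 targets passed in edgeR (4 at an unadjusted p under 0.05, and 2 in DESeq2 and 0 in limma-voom after adjustment), with a median of 0.14. Of the S phase genes 0 passed (3 at an unadjusted p under 0.05, and 1 in DESeq2 and 0 in limma-voom), with a median of -0.10, and 4 of 12 interferon-stimulated genes rose, with a median of 0.58. Of all genes, 0.0275% were called higher and 0.0321% lower in intact cells, and 2504 of the 21803 tested had an unadjusted p under 0.05. Between DMSO libraries, deleted against intact, 5 of 12 p53 targets were higher, where 18.8% of all genes were higher and 16.2% lower. Of 13 S phase genes 3 were higher and 3 lower, and 10 of 12 interferon-stimulated genes were lower with a median of -1.22. Between doxorubicin libraries 25.9% of all genes were higher in deleted cells and 21.9% lower. There 12 of 12 p53 targets were higher, with a median of 3.19. Of the S phase genes 9 were higher and 1 lower (median 0.31), and of the interferon-stimulated genes 4 were higher and 4 lower (median 0.10). Summed mesenchymal markers were 4003 to 4120 CPM in deleted doxorubicin and 5333 to 5779 CPM in deleted DMSO libraries, against 6020 to 6307 CPM in intact doxorubicin and 6802 to 7187 CPM in intact DMSO libraries.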

How the data were processed

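The values are raw counts per gene as the authors deposited them, 1 column a library. The submitters' processing notes name STAR 2.7.9a, featureCounts, Subread 2.0.1 and the build hg38. Per the labels, total RNA was taken up with TRIzol and miRNeasy and made into KAPA libraries. Neither the annotation release nor the strand setting is given in the sources used here. Positions, exon lengths and overlaps came from GENCODE 29 on hg38, in which 58429 of 60660 identifiers were found, and 60641 had a symbol.

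The 4 groups were fitted together in edgeR 4.0.16 (R 4.3.3) after filterByExpr and TMM scaling, and p-values were adjusted by Benjamini-Hochberg over 21803 genes with a threshold of 0.05. The fit was tested on simulated data. CPM values use the TMM-scaled library sizes. Ratios were tested by exact two-sided permutation on the log2 scale. The members and lists were chosen with earlier results of these data known. In each comparison the text names all members and, from the nucleotide metabolism list, the 3 largest and 3 smallest log2 fold changes past the threshold whose higher group had a mean of 5 CPM or more, and the most abundant gene not past. Some genes of the lists are not reported here by name. For likeness the 3 nearest genes with a mean of at least 5 CPM were taken.

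Alternatives were RLE size factors, library totals, no filter, 1 CPM in 3 libraries, DESeq2 1.42.0, limma-voom (limma 3.58.1), a fit of the compared groups alone, a block for the replicate number, removal of each library's GC trend by loess offsets (span 0.5, GC known for 98.0% of genes), and leaving out each library or both libraries with the highest mitochondrial share. Their use on the named genes outside the member list and on the roles and context lists was added after seeing the data. Pairs of libraries within groups differed by more than sampling noise (chi-square per degree of freedom 8.42 to 204), so none was counted as a duplicate. That excess may be technical and does not show that the libraries are separate cultures.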

Additional observations from a re-analysis of the deposited data

Results flagged for a closer look

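The doxorubicin effect differed between cells labelled 17p-deleted and 17p-intact for 5 members, by the interaction term of the edgeR fit. Dose and genotype cannot be told apart in it, since deleted cells received 1 µM and intact cells 170 nM. The difference, deleted less intact, was 2.12 on the log2 scale for RRM2B, 1.03 for TYMS, 0.71 for TK1, 0.55 for RRM1 and 0.40 for RRM2. All 5 were larger in deleted cells.

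Among the named genes of nucleotide metabolism the same term was 1.74 for TYMSOS, 1.56 for AK1 and 0.56 for SLC29A1, and it was -1.14 for GLRX, -0.99 for DPYD and -0.92 for TXNRD1. Each passed an adjusted p of 0.05 in edgeR.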

How the results depend on the processing

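All 6 rises in deleted cells passed the threshold in 22 of 22 alternatives, and the differences of effects for RRM2B, TYMS and RRM1 in 21 of 21. For the difference of effects, 5 members were called, against 3 with the replicate block and 3 to 5 when a library was left out, RRM2 and TK1 being those lost. Same-numbered libraries deviated together with correlations from -0.645 to 0.268, so the numbers were not taken as pairs. In intact cells 13 genes were called with doxorubicin (6 higher, 7 lower), against 48 with library totals (7 higher, 41 lower), 196 with no filter, 65 with 1 CPM in 3 libraries, 467 with DESeq2, 25 with limma-voom, 358 with the GC trend removed, 195 without both high-mitochondrial libraries, 0 with only the groups compared or the replicate block, and 0 to 220 when a library was left out. Members called there numbered 0, against 1 with DESeq2, the GC trend removed or both libraries left out, and 0 to 1 when a library was left out, each time SAMHD1. Leaving out deleted DMSO replicate 2 gave it an adjusted p of 0.0385 and leaving out intact doxorubicin replicate 2 gave 0.0479. Between DMSO libraries members called numbered 0, against 1 with no filter (TK1, log2 -0.38), with the GC trend removed (TK1, -0.22) and without both high-mitochondrial libraries (RRM1, -0.19), and 0 to 1 when a library was left out (RRM2B, without intact doxorubicin replicate 2). Pathway genes called there numbered 30, and 47 with the GC trend removed. Signs turned for the following estimates, none of which passed the threshold. With doxorubicin in intact cells RRM2 was -0.020 with library totals and -0.00072 to 0.11 when a library was left out, TK1 was 0.044 without both high-mitochondrial libraries and -0.24 to 0.042 when one was left out, DCK was -0.12 to 0.16 and TXNRD1 -0.065 to 0.066. DCK was -0.071 to 0.18 in deleted cells, -0.048 to 0.24 between DMSO libraries (-0.060 without both libraries), -0.030 to 0.29 between doxorubicin libraries and -0.14 to 0.19 for the difference of effects. DUT was -0.088 to 0.15 for that difference and -0.20 without both libraries. The log2 ratio between DMSO libraries was -0.0050 to 0.010 for RRM2 to RRM1 and -0.18 to 0.021 for DCK to SAMHD1. MTHFD2 kept its sign in deleted cells, at 0.17 to 0.30 over the alternatives. Not past in the main fit, it passed with the GC trend removed and without intact doxorubicin replicate 2. The cause of these moves was not tested. A lone-library arm did not arise, and a fit of only the groups compared was not run for the difference of effects. Depth did not limit the members, all far above the floor of 3 counts.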
